A study of Mus musculus with 36 samples.

Results

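The clock activator genes measured here were Arntl, Arntl2, Clock and Npas2. They were read from every probe set that the array annotation assigns to 1 of these symbols and to no other gene. They are 4 of 18193 genes named on the array, with 10 of its 45101 probe sets: 2 for Arntl, 2 for Arntl2, 4 for Clock and 2 for Npas2. The arrays came from male C57B1/6J mice (strain as spelled in the labels) of 20 to 26 g that underwent conditioned place preference, where injections are paired with the compartments of a box. From day 3 to day 10 both groups received 1 injection a day. The modafinil group received saline and modafinil, a wakefulness-promoting drug, at 65 mg/kg on alternate days, and the vehicle group received saline on all days, each injection followed by 30 min in its compartment. All mice had a preference test on day 11 and were killed 24 h after the last modafinil or saline dose. The labels give no time of day for the dissection. The ventral tegmental area (VTA), the nucleus accumbens (NAC) and the prefrontal cortex (PFC) were punched from brain slices with a 1 mm punch. Each treatment had 5 arrays from VTA, 5 from NAC and 8 from PFC, which makes 36. The labels do not say that each array of a group is a separate mouse, nor whether arrays of different regions come from the same mice, so the p-values measure the spread between these arrays.

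In the molecular clock, BMAL1, the protein of Arntl, pairs with CLOCK or with its relative NPAS2 and binds E-box sequences in target genes. Among the targets are Per, Cry and the nuclear receptor genes Nr1d1 and Nr1d2, whose proteins repress the activators or their transcription, and Dbp, a bZIP transcription factor. Arntl is itself repressed by the NR1D (REV-ERB) receptors and activated by ROR receptors through a shared element, so that in most tissues Arntl RNA runs in opposite phase to Per and Dbp RNA. Npas2 is best known as a forebrain gene and is abundant in cortex and striatum. Arntl2 encodes BMAL2, a less studied partner of CLOCK.

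The promoter of Arntl is shown because 1 Arntl probe set was the only member past the threshold over the 3 regions together. In VTA alone the difference of that probe set was 0.03, and some alternatives lost the result over regions. The promoter also carries the element that links Arntl to the other clock genes. It is the RefSeq window of 300 bases around the start site annotated at the second of 2 Arntl starts, on the plus strand of GRCm38.p6, chr7:113207261-113207560. The capitals mark a match to TAGGTCA, the core of the ROR and REV-ERB element, whose first base lies at position +31 from the start site.
Arntl promoter: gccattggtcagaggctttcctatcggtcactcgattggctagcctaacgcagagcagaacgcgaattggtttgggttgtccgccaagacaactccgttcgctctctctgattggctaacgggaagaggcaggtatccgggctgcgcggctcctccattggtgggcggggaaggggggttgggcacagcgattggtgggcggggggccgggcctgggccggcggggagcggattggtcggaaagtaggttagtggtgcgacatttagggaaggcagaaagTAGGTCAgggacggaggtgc
Both strands were searched for the E-box CACGTG, the variant CACGTT, the element TAGGTCA and the D-box TTANGTAA. The match above was the only one in the 7 windows of the 4 genes. Of 32851 mouse promoter windows of the same length, 7.15% held CACGTG, 4.68% CACGTT, 2.61% TAGGTCA and 2.32% TTANGTAA. A match is a description of letters and no evidence of binding.

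Values are log2 intensities after RMA, so that a difference of 1 is a doubling. A difference was called at an adjusted p under 0.05 in limma over the 27022 probe sets that passed a filter on low mean values. Of the 10 members 8 passed it in VTA, 9 in NAC and 10 in PFC. Those left out were Arntl2 1429688_at in VTA and NAC and Npas2 1421036_at in VTA, whose values come from a fit without the filter. No 2 arrays were identical, and each array correlated with the others of its group at 0.987 to 0.996. The labelled tissues were checked with marker lists, each read as the mean log2 value of its genes. Dopamine neuron markers lay at 7.22 to 9.95 in VTA arrays, striatal markers at 10.50 to 11.98 in NAC arrays and cortical markers at 9.12 to 9.76 in PFC arrays. The VTA arrays differed by treatment in these markers. The 9 tested dopamine markers were all lower with modafinil and the 6 thalamic markers all higher, with 0 of either list called. Their median differences were −1.22 and 1.12. At an unadjusted p under 0.05 in limma, 8 dopamine markers were lower and 4 thalamic markers higher. Over all 27022 probe sets 3846 were lower and 1849 higher at that p. The thalamic list lay at 9.65 to 10.56 in modafinil VTA arrays and at 8.26 to 9.38 in vehicle VTA arrays. Modafinil PFC array 3 stood apart with striatal markers at 10.78 against 8.46 to 8.82 in the other modafinil PFC arrays. Modafinil NAC array 2 and vehicle NAC array 5 had cortical markers at 5.98 and 6.70, against 8.09 to 9.12 in the other NAC arrays. These 2 arrays had the highest striatal levels of their groups, 11.91 and 11.98. Cortical markers in the other NAC arrays thus lay near the PFC range, against 4.95 to 5.48 in VTA arrays. The part of cortical tissue in the NAC values was not tested. In such bulk tissue fewer cells of a type and less RNA per cell cannot be told apart.

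The first question was whether modafinil changed the activators within each region. In PFC 9 of 10 members had a lower mean with modafinil, in NAC 9 of the 9 tested and in VTA 4 of the 8 tested. Over all tested probe sets 62.5% were lower in PFC, 56.5% in NAC and 63.8% in VTA. The median difference of the tested members was −0.13 in PFC, −0.12 in NAC and 0.01 in VTA, beside −0.03, −0.01 and −0.05 over all tested probe sets. No member was called within a region, where the background was 0.259% of probe sets called in VTA, 0% in NAC and 0.0518% in PFC. At an unadjusted p under 0.05 in limma there were 4 members lower in PFC and 2 lower in NAC, against 8.15% and 2.09% of all probe sets lower at that p. NAC, with 0 of 27022 probe sets called, had 874 (3.23%) at that p in either direction. In VTA there were 0 of the 8 tested, against 21.1% of all probe sets in either direction.

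Arntl had the lowest adjusted p of any tested member within a region. In PFC its probe set 1425099_a_at lay at 9.57 to 9.95 in vehicle arrays, with a median of 9.76. In modafinil arrays it lay at 9.26 to 9.56, with a median of 9.45. Every modafinil array was below every vehicle array, though the 2 groups came within 0.01 of each other. The background of such separation with modafinil lower was 0.0851% of probe sets. The mean was 9.43 ± 0.12 (SD, n = 8) with modafinil and 9.77 ± 0.12 (SD, n = 8) with vehicle, a 1.26-fold lower level. The difference of −0.34 (SE 0.06, 95% interval −0.46 to −0.21) had an adjusted p = 0.0508 in limma, just outside the threshold, and ranked 15th of 27022 by p. An exact two-sided permutation test gave p = 0.000155, the smallest that 8 against 8 allows. After adjustment over all tested probe sets it was 0.15, the lowest adjusted value of any probe set there. Without modafinil PFC array 3, the array with high striatal markers, the Arntl difference was −0.35 with an adjusted p = 0.026. Leaving out vehicle array 2 or modafinil array 6 also brought Arntl past the threshold, with adjusted p = 0.0367 and 0.0263. Over the 16 ways to leave out 1 PFC array, the adjusted p in limma ran from 0.026 to 0.157.

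In NAC the same Arntl probe set read 9.04, 8.78, 8.99, 9.13 and 9.47 in vehicle arrays. With modafinil it read 8.55, 8.61, 8.87, 8.84 and 8.54. All 5 modafinil arrays were below the vehicle mean, but the groups overlapped, since vehicle array 2 lay below 2 modafinil arrays. The difference was −0.40 (SE 0.12) with an unadjusted p = 0.00623 in limma and an adjusted p = 1. It was −0.38 without modafinil NAC array 2 and −0.30 without vehicle NAC array 5, the arrays with few cortical markers, and neither passed.

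In VTA Arntl read 8.57, 8.16, 8.36, 8.41 and 8.55 with vehicle. With modafinil it read 8.63, 8.26, 8.63, 8.33 and 8.35. The groups spanned almost the same range, and the difference of 0.03 (95% interval −0.18 to 0.25) had an adjusted p = 0.871 in limma. Its sign turned in several alternatives, to −0.23 with the thalamic marker level as a covariate.

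Across the 3 regions, with region in the model, Arntl 1425099_a_at fell by 0.25 (SE 0.06) with an adjusted p = 0.0286 in limma over 36 arrays. It was 1 of 10 members called there, beside a background of 0.84% of probe sets, 0.396% called lower. At an unadjusted p under 0.05, 4 of the 10 were lower, against 13% of probe sets. The call was lost after quantile normalization of all arrays, with −0.21 and an adjusted p = 0.0792, and without modafinil NAC array 1, with −0.24 and 0.0544. This model averages over regions: Arntl differed by 0.37 (adjusted p = 0.197) between VTA and PFC and by 0.43 (0.208) between VTA and NAC in its modafinil difference, neither past the threshold. NAC and PFC differed by −0.06 (SE 0.13).

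The other Arntl probe set, 1457740_at, gave smaller values on the same side in NAC and PFC. In PFC it lay at 7.68 to 8.39 with vehicle, median 8.15, and at 7.78 to 8.12 with modafinil, median 7.93. The modafinil arrays fell within the vehicle range. Its difference was −0.17 (adjusted p = 0.461) in PFC, −0.19 in NAC and 0.08 in VTA, and −0.10 across the regions (adjusted p = 0.371). Deviations of the 2 Arntl probe sets from their group means correlated at 0.563 in VTA, 0.164 in NAC and 0.516 in PFC, as a description over 10, 10 and 16 arrays.

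**Figure D1:**
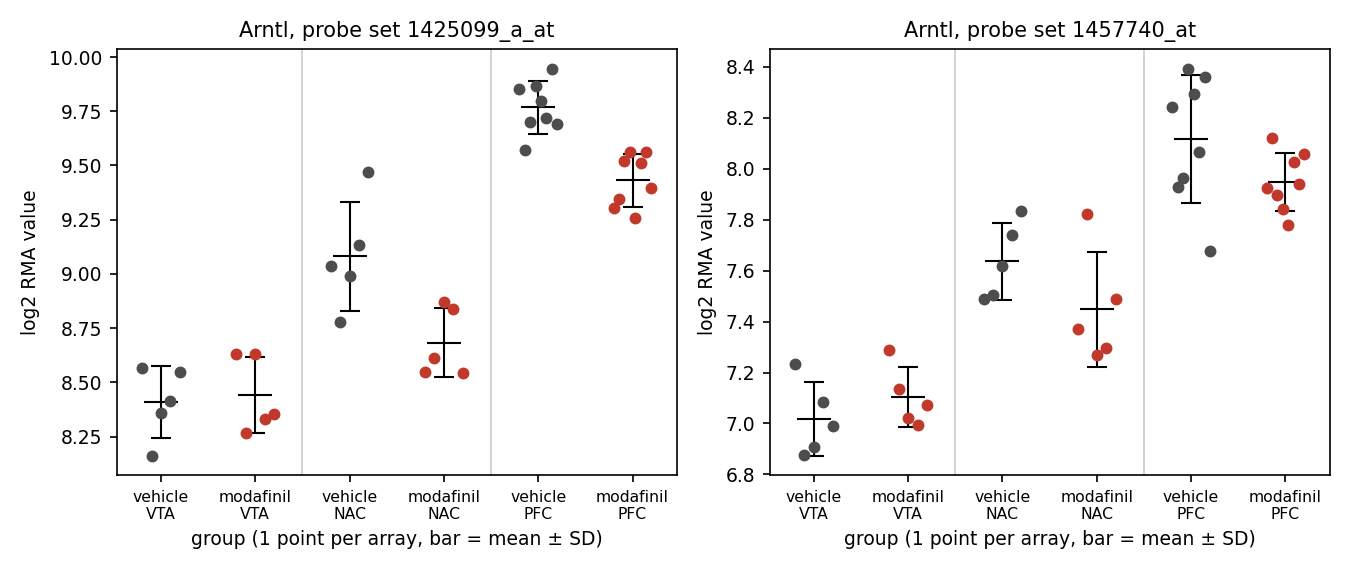
Log2 RMA value of the 2 Arntl probe sets (y axes) in each array, by treatment and region (x axes), with 1 point per array and bars for the mean ± SD. In PFC the 8 modafinil points of 1425099_a_at, at 9.26 to 9.56, lie below the 8 vehicle points, at 9.57 to 9.95, and those of 1457740_at overlap.

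The mean of Npas2 1421036_at was higher with modafinil in VTA and lower in NAC and PFC. In vehicle VTA arrays probe set 1421036_at read 5.20, 5.26, 5.02, 5.05 and 5.44. In modafinil VTA arrays it read 5.93, 5.77, 5.80, 5.68 and 5.62. The groups did not overlap, which 1.81% of tested probe sets did with modafinil higher. These are low values, below the filter level of 6.16 in VTA, and the probe set was not among the tested 27022 there. The difference was 0.57 (SE 0.09), with an adjusted p = 0.0699 in limma without the filter. No fold is given for values this low. An exact two-sided permutation test gave p = 0.00794, the smallest that 5 against 5 allows. Over the 10 ways to leave out 1 VTA array the difference stayed between 0.52 and 0.63, with an adjusted p = 0.0377 without vehicle VTA array 5 and 0.06 to 0.162 otherwise.

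In NAC the same probe set read 7.35, 7.25, 7.39, 7.39 and 7.46 with vehicle. With modafinil it read 7.13, 7.04, 6.86, 7.00 and 7.31. Modafinil array 5 was the only one above the lowest vehicle array, and all 5 were below the vehicle mean. The difference was −0.30 (SE 0.09), 1.23-fold lower, with an unadjusted p = 0.0043 in limma and an adjusted p = 1. In PFC it lay at 7.40 to 7.68 with vehicle, median 7.58, and at 7.24 to 7.71 with modafinil, median 7.51, which overlap throughout. That difference was −0.05 (95% interval −0.18 to 0.08).

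The differences between regions were tested directly. The modafinil difference of Npas2 1421036_at was higher in VTA than in NAC by 0.87 (SE 0.12), adjusted p = 0.000253 in limma. It was higher in VTA than in PFC by 0.62 (SE 0.11), adjusted p = 0.00147. Npas2 was the only member called in either, beside 0.274% and 0.903% of probe sets called. It was tested in these fits only through its NAC and PFC levels: its VTA arrays, at 5.02 to 5.93, all lie below the filter level of 6.39, so these calls rest on low VTA values. Between NAC and PFC the difference was −0.25 with an adjusted p = 0.914, where 0 of 27022 probe sets were called and 1328 (4.91%) had an unadjusted p under 0.05. The first 2 contrasts share the VTA arrays, and all 3 share arrays pairwise. No single array decided them: over the 36 ways to leave 1 out, the value stayed between 0.82 and 0.93 for VTA against NAC and between 0.58 and 0.68 for VTA against PFC, each past the threshold. All of these fits rest on the same low VTA values, so leaving out arrays does not test that limit. They could not be fitted for this probe set with the filter at the 60th percentile, which removed it.

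The VTA difference of Npas2 came with the marker difference described above. With the dopamine marker level as a covariate, Npas2 1421036_at differed by 0.50 (SE 0.13, adjusted p = 0.619) in VTA, and with the thalamic level by 0.46 (SE 0.15, adjusted p = 0.372). In the VTA arrays striatal markers lay at 7.79 to 8.27 with modafinil and 7.95 to 8.35 with vehicle, and cortical markers at 5.01 to 5.21 and 4.95 to 5.48. The part of tissue makeup in the Npas2 difference was not tested.

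The other Npas2 probe set, 1421037_at, read 6.61, 6.69, 6.59, 6.46 and 6.93 in vehicle VTA arrays. In modafinil VTA arrays it read 8.05, 6.12, 7.02, 6.96 and 7.17. Here 4 modafinil arrays were above all vehicle arrays and modafinil array 2 was below all of them, so the SD was 0.69 with modafinil against 0.18 with vehicle. The difference was 0.41 (SE 0.26, adjusted p = 0.372) in VTA, and −0.21 with the thalamic level as a covariate. In NAC it was −0.21 (SE 0.13) and in PFC −0.12 (SE 0.06, unadjusted p = 0.0475, adjusted 0.42), or −0.07 after quantile normalization. The differences between regions had the signs of the first probe set, 0.62 for VTA against NAC (adjusted p = 0.331) and 0.53 for VTA against PFC (0.317), and neither passed. Without modafinil VTA array 2 the number of members called rose from 1 to 2 in both contrasts, the added one being Npas2 1421037_at.

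**Figure D2:**
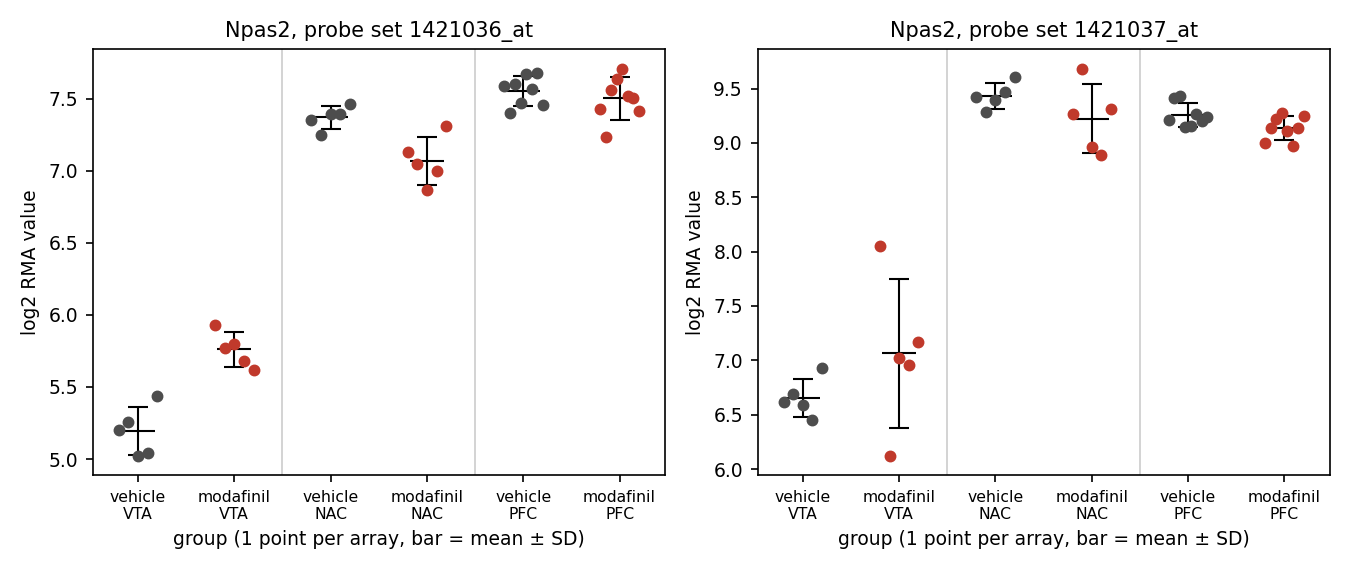
Log2 RMA value of the 2 Npas2 probe sets (y axes) in each array, by treatment and region (x axes), with 1 point per array and bars for the mean ± SD. In VTA the modafinil points of 1421036_at, at 5.62 to 5.93, lie above the vehicle points, at 5.02 to 5.44, and in NAC most lie below, while 1421037_at spreads from 6.12 to 8.05 in modafinil VTA arrays.

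Clock, which encodes the usual partner of BMAL1, was lower at all 4 probe sets in PFC without passing the test. Probe set 1418660_at lay at 9.85 to 10.01 in vehicle PFC arrays, median 9.91, and at 9.52 to 9.88 in modafinil arrays, median 9.74. All 8 modafinil arrays were below the vehicle mean, and the groups overlapped by a narrow margin. The difference was −0.19 (SE 0.06), 1.14-fold lower, with an unadjusted p = 0.00304 and an adjusted p = 0.27 in limma. After quantile normalization it was −0.12. An exact two-sided permutation test gave p = 0.000932, and 0.164 after adjustment. The other Clock probe sets gave −0.14 for 1418659_at, −0.10 for 1435775_at and −0.04 for 1439314_at in PFC.

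In NAC the 4 Clock probe sets ran from −0.12 to −0.03, each with an adjusted p = 1. In VTA they ran from −0.11 to −0.0041, with adjusted p from 0.597 to 0.98, and 1418660_at turned to 0.04 after quantile normalization. Across the regions 1418660_at gave −0.12 (SE 0.04, adjusted p = 0.124), and −0.07 after quantile normalization. Within regions, deviations from the group mean correlated at 0.242 to 0.858 among 1418659_at, 1418660_at and 1435775_at. Those of 1439314_at correlated with the other 3 at −0.37 to 0.189, so this probe set did not follow them.

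Arntl2 had 2 probe sets that disagreed. Probe set 1425931_a_at differed by 0.10 in VTA, −0.0085 in NAC and 0.07 in PFC, with adjusted p of 0.552, 1 and 0.547 in limma. Probe set 1429688_at read 6.00, 6.00, 6.49, 5.95 and 6.22 with vehicle and 6.04, 5.41, 5.75, 6.07 and 5.64 with modafinil in VTA. In NAC it read 5.69, 5.62, 5.62, 5.51 and 5.40 with vehicle and 5.35, 5.98, 6.43, 6.24 and 6.05 with modafinil. In NAC 4 modafinil arrays were above all vehicle arrays and array 1 was below all of them, while in VTA the groups overlapped. In PFC it lay at 7.11 to 7.64 with vehicle, median 7.33, and at 6.82 to 7.42 with modafinil, median 7.04.

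The differences of Arntl2 1429688_at were −0.35 in VTA (adjusted p = 0.256), 0.44 in NAC (unadjusted p = 0.0165, adjusted 1) and −0.28 in PFC (unadjusted p = 0.00381, adjusted 0.281). The first 2 are from the fits without the filter. Its modafinil difference was lower in VTA than in NAC by 0.79 (adjusted p = 0.0798 in limma). Over the 36 ways to leave out 1 array, the adjusted p in limma ran from 0.0123 to 0.173. Only 1 of these fits passed, the one without modafinil NAC array 1, where VTA was lower by 0.96. NAC and PFC differed by 0.73 (unadjusted p = 0.000346, adjusted 0.914 in limma). In these contrasts the probe set was tested only through its PFC level, since its group means in VTA and NAC, 5.57 to 6.13, lie below the filter level of 6.39. Deviations of the 2 Arntl2 probe sets correlated at −0.748 in VTA, 0.0349 in NAC and −0.374 in PFC.

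**Figure D3:**
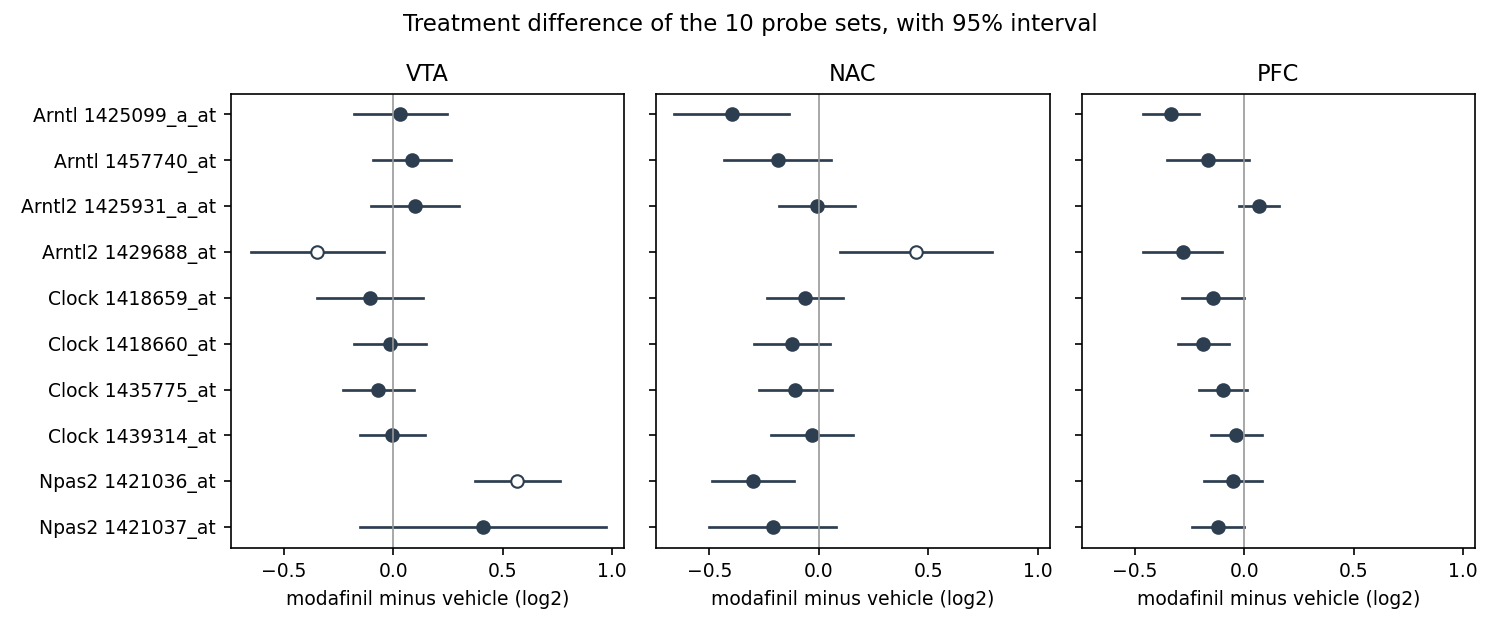
Modafinil minus vehicle on the log2 scale (x axes) for the 10 member probe sets (y axis) in VTA, NAC and PFC, with 95% intervals from limma, where open points are probe sets that did not pass the filter in that region. Arntl 1425099_a_at lies at −0.40 in NAC and −0.34 in PFC but at 0.03 in VTA, and Npas2 1421036_at at 0.57 in VTA and −0.30 in NAC.

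The activators were also compared between regions in vehicle mice, for NAC against VTA. Of the 10 members 6 were higher and 1 lower in NAC, beside 30.3% of probe sets called higher and 28.8% lower, 59% in all. The largest differences were those of Npas2, 2.78 (SE 0.08) at 1421037_at, 6.85-fold higher in NAC, and 2.18 (SE 0.08) at 1421036_at, with adjusted p = 2.35e-15 and 1.93e-14 in limma. No fold is given for 1421036_at, whose VTA level of 5.19 lies below the filter level. That probe set was tested in this fit only through its NAC and PFC levels. Arntl was higher by 0.67 (SE 0.10) and 0.62 (SE 0.12). Clock was higher by 0.35 at 1435775_at and 0.63 at 1439314_at, and gave 0.13 (adjusted p = 0.0619) and −0.03 at the others. Arntl2 1429688_at was lower by 0.56 (SE 0.11), and 1425931_a_at gave 0.02. Both groups of Arntl2 1429688_at lie below the filter level of 6.38 of this fit on average, at 6.13 and 5.57, and it was tested only through its PFC level. It did not pass the filter in a fit of the vehicle VTA and NAC arrays alone, where 6 of the 9 tested members were called. In the fit of all vehicle arrays, all 5 tested cortical and all 7 tested striatal markers were called higher in NAC. The part of tissue makeup in these levels was not tested.

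PFC levels were not tested, because the deposited PFC values sit on a higher scale. Quantile normalization of all arrays moved the group medians of all probe sets. The shift was 0.17 to 0.23 in VTA and NAC and −0.25 to −0.24 in PFC. It makes the overall distributions of the arrays alike. A difference in the preparation of PFC arrays that affects single probe sets could not be told apart from region. The levels in vehicle mice after this step are therefore given as a description. Arntl 1425099_a_at then averaged 8.61 in VTA, 9.25 in NAC and 9.52 in PFC, with NAC at 8.99 to 9.62 and PFC at 9.36 to 9.68, which overlap. Npas2 1421037_at averaged 6.88 in VTA, 8.97 in PFC and 9.62 in NAC, without overlap between neighbours. Npas2 1421036_at averaged 5.46, 7.32 and 7.52 in the same order, with PFC and NAC overlapping. Clock 1418660_at averaged 9.45 in VTA, 9.44 in NAC and 9.65 in PFC, the VTA and NAC arrays overlapping and the PFC arrays, at 9.61 to 9.72, above both. Clock 1439314_at had another order, 6.81 in PFC, 7.28 in VTA and 7.86 in NAC, without overlap. Arntl2 1429688_at averaged 5.73 in NAC, 6.36 in VTA and 7.11 in PFC, without overlap, and 1425931_a_at 7.09 to 7.15 in all 3. The share of all probe sets without overlap between regions was not counted. Such separation is therefore not read as a trait of the members. In the deposited values 59% of probe sets were called for NAC against VTA, which is a different measure.

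The other clock genes were read from the brightest probe set of each. The 10 repressor genes had a higher mean with modafinil for 8 in VTA, for 9 each in NAC and PFC and for 10 over all regions, with median differences of 0.17, 0.15, 0.14 and 0.15. Over all tested probe sets 34.7% were higher in the model over regions, and 36.2% in VTA, 43.5% in NAC and 37.5% in PFC. Across the regions 4 of the 10 rose: Per2 by 0.30 (adjusted p = 0.000129 in limma), Ciart by 0.49 (0.000679), Nr1d2 by 0.20 (0.00197) and Per3 by 0.15 (0.0302), where 120 of 27022 probe sets were called higher. Per2 and Per3 encode partners of the cryptochromes, Ciart (CHRONO) encodes a repressor that binds BMAL1, and Nr1d2 encodes REV-ERB beta, a repressor of Arntl. In PFC Per2 lay at 9.15 to 9.72 with vehicle and 9.65 to 10.06 with modafinil, a difference of 0.36 (unadjusted p = 0.00029, adjusted 0.12), and Nr1d1 gave 0.02. In VTA 1 repressor passed the test, Ciart, with 0.61 (adjusted p = 0.0462), where 51 of 27022 probe sets were called higher beside the marker shift described above. No probe set was called in VTA without the filter or with either marker level as a covariate.

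Of the 6 output and ROR genes measured 5 had a higher mean with modafinil in VTA, 6 in NAC and 3 in PFC. Hlf, a bZIP factor related to DBP, passed the test in VTA with 1.03 (SE 0.18, adjusted p = 0.0462), under the same limits as Ciart, and its modafinil difference was higher in VTA than in PFC by 0.98 (adjusted p = 0.00577). Dbp rose across the regions by 0.47 (SE 0.09, adjusted p = 0.00429 in limma). In PFC Dbp lay at 10.13 to 11.06 with vehicle, median 10.34, and at 10.78 to 11.34 with modafinil, median 11.07. Nfil3, a bZIP repressor that competes with DBP, gave −0.52 in PFC (SE 0.15), with values of 7.94 to 9.20 and 7.30 to 8.22. Rora, which encodes an activator of Arntl, gave 1.33 in VTA (adjusted p = 0.0514) and −0.13 in PFC, and differed between the 2 regions by 1.46 (adjusted p = 0.00121), beside the thalamic markers, 3 of whose 5 tested genes were called in that contrast. Of the 5 tested clock kinase and ligase genes and the 7 tested bHLH-PAS genes outside the clock, 0 were called within a region or across the regions. At an unadjusted p under 0.05 the kinases numbered 1 in VTA, 2 in PFC and 1 over all regions, all lower, and the bHLH-PAS genes 1 in VTA, also lower. Over all 27022 probe sets 3846 were lower at that p in VTA, 2201 in PFC and 3503 over all regions. Arnt, the general partner of this family, gave −0.09 in VTA, −0.03 in NAC and 0.08 in PFC.

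**Figure D4:**
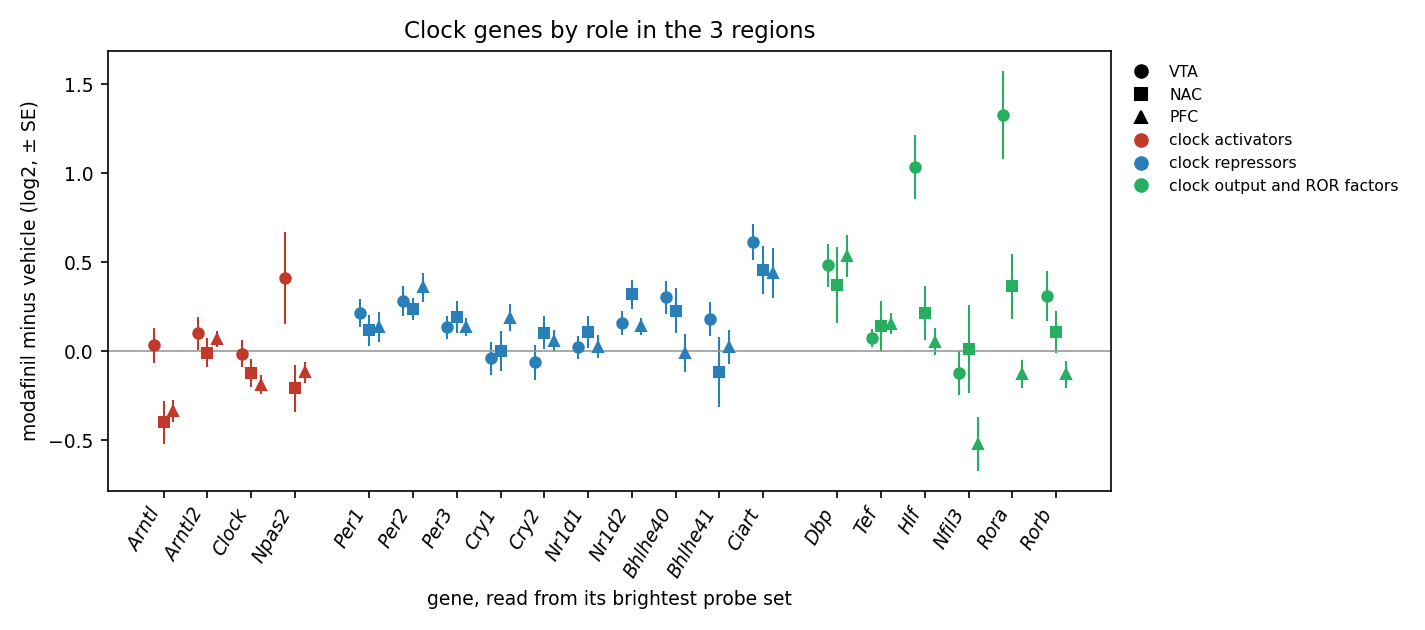
Modafinil minus vehicle on the log2 scale (y axis, ± SE) for clock genes grouped by role (x axis), each from its brightest probe set, in VTA (circles), NAC (squares) and PFC (triangles). Arntl lies below 0 in NAC (−0.40) and PFC (−0.34), and Dbp (0.47 across regions) and Ciart (0.49) lie above 0 in all 3.

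Whether the activators varied with each other and with their targets was read from deviations of each array from its group mean, which removes the treatment difference, with the brightest probe set of each gene (1425099_a_at for Arntl, 1418660_at for Clock, 1421037_at for Npas2). There were 36 correlations with permutation p-values adjusted over all 36. Of these 2 passed, both in PFC over 16 arrays. Arntl and Dbp gave Pearson r = −0.81 (permutation p = 0.00013, adjusted 0.00468) and Spearman rho = −0.762 (p = 0.00083, adjusted 0.0299). Arrays with more Arntl than the mean of their group tended to have less Dbp. Without the 2 arrays farthest from the Arntl median r was −0.702 (permutation p = 0.00531, adjusted 0.0956), which no longer passed. In VTA and NAC, with 10 arrays each, r was −0.217 and −0.194 (adjusted permutation p = 0.725 for each). Without the 2 farthest arrays it was −0.00858 in VTA and −0.769 in NAC (permutation p = 0.0784, adjusted 0.353), so 2 arrays decide the NAC value. Arntl and Per2 gave r = −0.497 in VTA, −0.471 in NAC and −0.184 in PFC. Arntl and Nr1d1 gave 0.127, 0.334 and −0.4 in the same order. None of these passed the threshold.

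Npas2 and Per2 gave r = 0.762 (permutation p = 0.00105, adjusted 0.0189) and rho = 0.729 (p = 0.00282, adjusted 0.0508) in PFC. Without the 2 farthest arrays r was 0.661 (permutation p = 0.00206, adjusted 0.0742), and after quantile normalization it was 0.74 (adjusted 0.0531), so neither passed. Arntl and Clock, the dimer partners, gave r = 0.844 in VTA, 0.534 in NAC and 0.662 in PFC, with adjusted permutation p of 0.0721, 0.434 and 0.0654. After quantile normalization these were 0.746, 0.366 and 0.358, with adjusted permutation p of 0.197, 0.588 and 0.533. Clock and Npas2 gave r = 0.248, −0.717 and 0.00357 in the same order, none past the threshold.

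**Figure D5:**
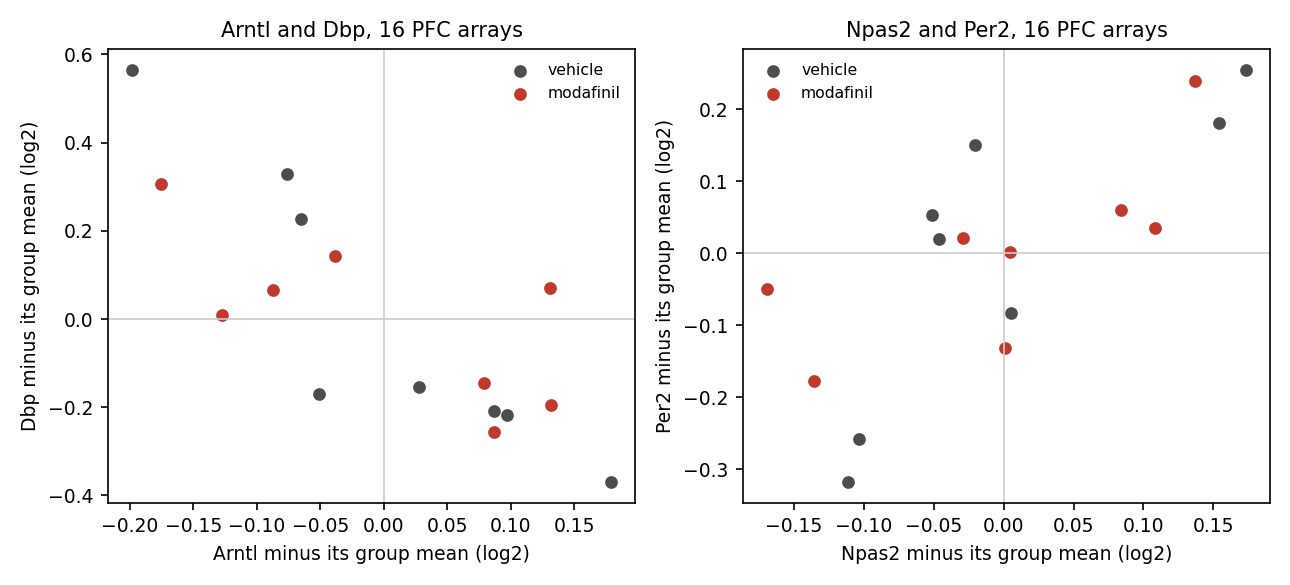
Deviation of each of the 16 PFC arrays from its group mean on the log2 scale, for Dbp (y axis) against Arntl (x axis) on the left and Per2 (y axis) against Npas2 (x axis) on the right, with vehicle and modafinil arrays in different colours. The left points run downward (r = −0.81) and the right points upward (r = 0.762).

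The genes whose levels followed each activator most closely were read over all 36 arrays after the mean of each region was subtracted, among 12610 genes, as a description with treatment left in. Arntl was most like Azi2, an adaptor of the kinase TBK1, at r = 0.798, then Leo1 (0.787), Clock (0.767) and Gphn (0.748), which encodes the synaptic scaffold gephyrin. With group means subtracted, Arntl and Clock still correlated at 0.657. The lowest values were those of Gbp7 (−0.693) and Slfn5 (−0.686), both known as interferon-induced genes. Clock was most like BC003965 (0.835), Tiprl (0.822), Pdcd7 (0.803) and the peroxisome gene Pex3 (0.8), and least like the antiviral genes Ddx58 (−0.738) and Ifit1 (−0.73). Npas2 was most like Lrrtm1 (0.825), a synaptic adhesion gene, Slc25a37 (0.809), Acvr1c (0.783) and Elmo1 (0.783), and least like Chd5 (−0.698) and AI504432 (−0.651).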

How the data were processed

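RNA of VTA, NAC and PFC punches was hybridised to Affymetrix whole-genome mouse arrays. The authors' values were used as deposited, in log2 units, computed with RMA per the submitters' processing notes, with no version named. Per the labels' protocols, RNA of 2 tissue pieces was pooled where its integrity number was above 7. RMA scales arrays to each other within a run, so levels of PFC and of the other regions were not tested against each other. Scan dates and probe intensities were not analysed here, and the number of arrays limits the precision.

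The 64 control probe sets were left out. Probe sets at or above the 40th percentile of the mean over a fit's arrays were tested with lmFit and eBayes of limma 3.58.1 (R 4.3.3), with Benjamini-Hochberg adjustment and a threshold of 0.05. Comparisons were modafinil against vehicle in each region (its own arrays), across regions (36 arrays, region as a factor), the 3 differences between regions (6 group means) and NAC against VTA in the 18 vehicle arrays. Exact permutation tests and correlations (100000 resamples within treatment groups) used Python 3.11.15. The fits were tested on simulated data. Symbols were matched through Entrez identifiers for 34741 of the 34945 probe sets with 1 symbol. Every member probe set is named; other genes are clock list members past the threshold or with the smallest p, and the genes most alike by correlation (the 4 highest and 2 lowest). Promoter windows came from RefSeq on GRCm38.p6. The members, lists and tests were chosen with earlier results of these data known. Alternatives were the scaling, the filter, array weights, trend, 1 probe set per gene, a common fit, the replicate block, leaving out each array and, added after seeing the data, marker levels as covariates.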

Additional observations from a re-analysis of the deposited data

Results flagged for a closer look

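The modafinil difference of Npas2 1421036_at was 0.87 higher in VTA than in NAC and 0.62 higher in VTA than in PFC on the log2 scale, each past the threshold in limma's test of the difference itself (adjusted p = 0.000253 and 0.00147). Its VTA values, 5.02 to 5.93, lie below the filter level of 6.39 of these fits, and it was tested only through its NAC and PFC levels. The other Npas2 probe set, 1421037_at, gave 0.62 and 0.53, with adjusted p = 0.331 and 0.317. In the VTA arrays dopamine markers were lower and thalamic markers higher with modafinil. The VTA difference of Npas2 1421036_at was 0.50 and 0.46 with the level of either list as a covariate, against 0.57 without. None of these passed the threshold. The thalamic level did not overlap between treatments, so a fit cannot separate it well from treatment. The contrasts between regions were not fitted with a covariate. In 60 checks of a member in a group, no array lay far enough from the others to be singled out, where chance would give about 1 in 20.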

How the results depend on the processing

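Over 34 single results and 869 alternatives, 842 kept their direction and their side of the threshold, 10 passed the threshold newly, 6 no longer passed and 11 turned their sign. Those that turned were near 0 or had a wide spread in VTA: Clock 1418660_at went to 0.0375 after quantile normalization and to 0.0144 at most without 1 array (range −0.0638 to 0.0144), and Arntl 1425099_a_at to −0.0277 with array weights, to −0.226 with the thalamic level as a covariate and to a range of −0.0298 to 0.0761 without 1 array. With the thalamic covariate Arntl 1457740_at went to −0.0572 and Npas2 1421037_at to −0.21. Values that did not pass and moved by over 1.5 times included Npas2 1421036_at in NAC (−0.198 with array weights) and, with covariates, Npas2 1421037_at in VTA (0.247, dopamine) and in NAC (−0.134, striatal) and Arntl2 1429688_at in VTA (−0.556, thalamic). Of the members, the number called in VTA went from 0 to 1 with all 36 arrays in 1 fit (Npas2 1421036_at, adjusted p = 7.05e-05). This probe set passed the filter of that fit only through its NAC and PFC levels, and its VTA values lie below the filter level. In PFC the number called went from 0 to 1, for Arntl, with 1 probe set per gene, array weights or the striatal covariate. Over the fits without 1 array it also ran from 0 to 1. Across the regions it went from 1 to 0 after quantile normalization and with the replicate block, to 2 with array weights (Arntl and Clock 1418660_at) and ran from 0 to 1 without 1 array. In VTA against PFC and VTA against NAC it went from 1 to 0 with the stricter filter, which removed Npas2 1421036_at, and ran from 1 to 2 without 1 array. For NAC against VTA it was 3 with the stricter filter, 7 as reported and 7 to 8 without 1 array. The number of correlations past the threshold went from 2 to 0 without 2 arrays and to 1 after quantile normalization. Replicate numbers did not pair the arrays (1 of 5 pairs in VTA, 1 of 5 in NAC and 3 of 8 in PFC had deviations correlated above 0.1). Between VTA and NAC 1 of 5 vehicle pairs and 2 of 5 modafinil pairs did, although all 5 vehicle correlations were positive (0.016 to 0.249) and 4 of the 5 arrays correlated best with their own number, a hint from the data and not from the design. The block left 7 members called for NAC against VTA. With the replicate block Arntl across the regions had an adjusted p = 0.0742, and 0 probe sets were called in VTA and in PFC, against 70 and 14. Over all probe sets the number called in VTA also moved, to 294 after quantile normalization, 0 without the filter and 0 to 172 without 1 array, and in PFC to 0 to 62 without 1 array. Where no value above is given, the cause was not tested.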
